A study of Mus musculus with 10 samples.

Results

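The 101 genes described here are nuclear, protein-coding genes of the mouse. They encode products that form, assemble or act with the mitochondrial respiratory chain and ATP synthase, or make or bind coenzyme Q. They were chosen by symbol, as the genes starting with Nduf, Sdha, Sdhb, Sdhc, Sdhd, Uqcr, Cox4, Cox5, Cox6, Cox7, Cox8, Atp5 or Coq, and by a level of at least 1 in at least 2 libraries in TPM, a length-corrected share of all transcripts. Of 28987 gene IDs in the deposited tables, 13056 passed that level and were tested, and 108 protein-coding genes had such a symbol, of which 7 stayed below the level. By role, the 101 genes include 7 core and 29 supernumerary subunits of complex I with 8 of its assembly factors. They also include 4 subunits and 4 assembly factors of complex II and 8 subunits of complex III. The lists for complex IV, ATP synthase and coenzyme Q hold 13, 17 and 11 genes, not all of them subunits or synthesis enzymes.

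The 10 RNA libraries were made from crypts of the mouse ileum, glands with stem cells at their base beside Paneth cells and with dividing progenitors above, and fell into 3 groups. The 2 KO libraries carry VilCreER;Stat5 with the genotype written STAT5IEC-/-, the 5 OE libraries carry VilCreER;icS5 with STAT5IEC+++, and the 3 Ctrl libraries carry VilCreER;Stat5 with STAT5+/+. VilCreER is a tamoxifen-inducible Cre recombinase driven by the villin promoter, which is active in the gut epithelium, and it is named in the genotype of every group. The labels do not spell out the icS5 allele, no Cre-only control of that line is analysed here, and whether or when Cre was induced is not given in the labels. All mice are labelled C57Bl6, male and 12 weeks old. The labels do not say whether libraries come from separate animals, so every p below reflects only the spread between libraries, which may be technical.

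Stat5a stood at 0.637 and 0.336 scaled TPM in KO libraries 1 and 2, at 1.56, 2.10, 3.55, 2.81 and 2.81 in OE libraries 1 to 5 and at 1.51, 2.60 and 1.07 in Ctrl libraries 1 to 3. Stat5b stood at 0.482 and 0.430 in KO, 1.49, 3.50, 4.71, 5.53 and 2.65 in OE and 1.72, 1.76 and 0.970 in Ctrl. Both genes were lower in every KO library than in every other library, and the library labelled OE 1 lay inside the Ctrl range for both. Scaled TPM are the deposited TPM divided by a factor per library that makes the typical gene equal across libraries. Ctrl 2 stood apart: mitochondrially encoded transcripts took 83.7% of its TPM, against 43.3% to 57.0% in the other libraries, its factor was 0.295 against 0.831 to 1.31, and 8263 genes reached 1 TPM there against 11050 to 11932. The transcripts of 4 genes on the Y chromosome (Uty, Kdm5d, Eif2s3y and Ddx3y) summed to 0.118 to 2.65 scaled TPM in OE 3, OE 4 and Ctrl 3, which are labelled male, against 39.2 to 125 in the other 7. Read depth cannot be had from TPM and is unknown for each library.

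As background, complexes I and II feed electrons from NADH and succinate into coenzyme Q, complex III passes them to cytochrome c, and complex IV passes them to oxygen, while complexes I, III and IV pump protons that drive ATP synthase. Most subunits are encoded in the nucleus and imported, and a small set is encoded in the mitochondrial genome. In the intestine, absorptive cells of the villus and crypt cells differ in how much they rely on oxidative metabolism.

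No member passed the threshold in any of the 3 comparisons, and neither did any other gene. By limma's moderated test on log2(scaled TPM + 1) and Benjamini-Hochberg adjustment over 13056 genes, 0 of 101 members had an adjusted p under 0.05 for KO against Ctrl, beside 0% of all genes tested (0 genes). OE against Ctrl gave 0 of 101 members beside 0% of all genes, and OE against KO gave 0 of 101 beside 0%. At an unadjusted limma p under 0.05, KO libraries had 0 members above Ctrl and 2 below (1.98% of members). Over all genes these counts were 253 and 199 (3.46%). OE libraries had 3 members above Ctrl and 2 below (4.95%), beside 495 and 302 of all genes (6.10%). Against KO, OE libraries had 0 members above or below (0%), beside 212 and 173 of all genes (2.95%). Stat5a and Stat5b did not pass either, at -0.84 and -0.75 for KO against Ctrl (limma adjusted p = 0.943 for both). In simulated data with the real within-group spreads, 7%, 15% and 4% of 2-fold changes were recovered in the 3 comparisons, in the order above. For 8-fold changes these shares were 84%, 94% and 82%, so 0 calls do not show that smaller changes are absent.

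The medians of the 101 genes differed from those of all genes by less than the members' median varied between libraries of a group (pooled SD 0.33 on the log2 scale). The median log2 difference over members was -0.07 for KO against Ctrl (42 above 0 and 59 below), beside 0.04 over all genes. It was 0.07 for OE against Ctrl (59 above 0 and 42 below), beside 0.02, and 0.15 for OE against KO (64 above 0 and 37 below), beside -0.00. Each pair of these comparisons shares a group of libraries. The sign of every median depended on single libraries, since it was 0.10 for KO against Ctrl without KO 2, -0.07 for OE against Ctrl without Ctrl 1 and -0.07 for OE against KO without KO 2. Without OE 3, OE 4 and Ctrl 3 together the 3 medians over members were -0.06, 0.24 and 0.42, and without Ctrl 2 and OE 1 together they were 0.03, 0.11 and 0.04. On TPM as deposited the medians for KO and OE against Ctrl were 0.41 and 0.53, beside 0.38 and 0.36 over all genes.

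**Figure D1:**
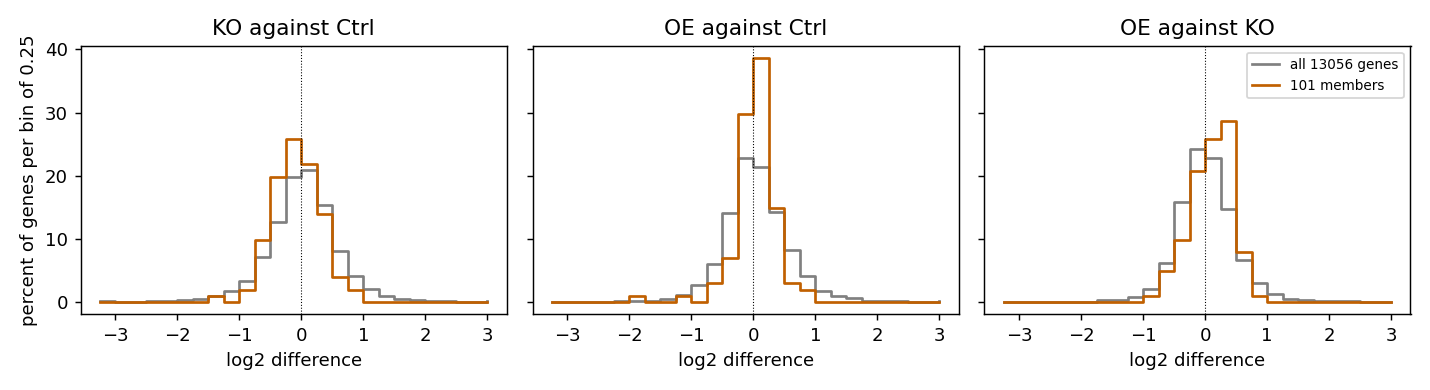
Distribution of log2 differences in bins of 0.25 for the 101 members (orange) and all 13056 genes tested (grey), with the percent of genes per bin on the vertical axis; the outermost bins also hold all values beyond -3 and 3. Most members lie between -1 and 1 in each comparison, with medians of -0.07, 0.07 and 0.15.

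Libraries with the same genotype label differed in the members as a whole. The median deviation of the 101 genes from their own means over the 10 libraries was -0.50 in OE 3 and 0.39 in OE 5 on the log2 scale, the lowest and the highest of the 10 libraries, and both carry the same genotype label. It was 0.28, 0.15 and -0.19 in OE 1, OE 2 and OE 4, 0.11 and -0.27 in KO 1 and KO 2, and -0.22, 0.23 and -0.01 in Ctrl 1 to 3. Over all genes tested the same median stayed between -0.12, in Ctrl 2, and 0.01. OE 3 was the lowest of the 10 libraries for 38 of 101 members (37.6%), beside 7.84% of all genes tested. In that library 85 members (84.2%) lay below their own mean, beside 49.0% of all genes. OE 5 was the highest for 25 members (24.8%), beside 7.84% of all genes, and the lowest for 0, beside 7.70%. Ctrl 2 was the highest for 24 members (23.8%), beside 23.5%. In KO the split also ran within the group. There 33 members (32.7%) lay below their mean in KO 1 and 67 (66.3%) in KO 2, beside 48.3% and 51.6% of all genes. The TPM of the members summed to 4.86% and 3.74% of nuclear TPM in KO, to 4.55%, 5.45%, 3.16%, 4.52% and 4.95% in OE, and to 4.18%, 4.78% and 4.49% in Ctrl, and the OE range encloses those of KO and Ctrl.

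**Figure D2:**
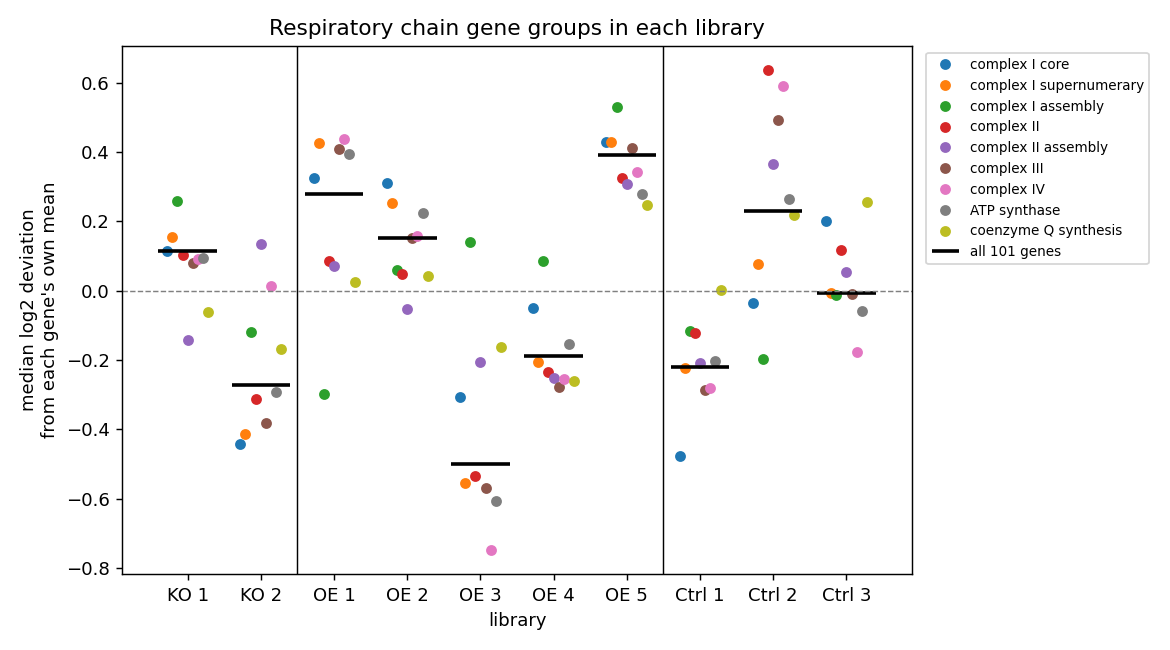
Median log2 deviation from each gene's own mean over 10 libraries (vertical axis) by library (KO, OE, then Ctrl), for each role (dots) and for all 101 genes (bars). OE 3 lies lowest at -0.50 and OE 5 highest at 0.39, on either side of the KO and Ctrl libraries.

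The roles did not all follow the library pattern. In OE 3 the median deviation was -0.75 for complex IV, -0.61 for ATP synthase, -0.57 for complex III and -0.56 for supernumerary complex I subunits, but 0.14 for complex I assembly factors and -0.16 for coenzyme Q genes. In Ctrl 2 it was 0.64 for complex II and 0.59 for complex IV, against -0.04 for the complex I core and -0.20 for complex I assembly factors. In OE 1 it was 0.44 for complex IV and -0.30 for complex I assembly factors. The median within-group standard deviation of the members was 0.48 on the log2 scale, beside 0.47 over all genes tested. For the 85 members with a mean of at least 10 scaled TPM it was 0.51, beside 0.43 over the 5495 genes at that level. The fitted difference exceeded the gene's own within-group standard deviation for 20 of 101 members in KO against Ctrl, beside 32.2% of all genes tested. It did so for 11 in OE against Ctrl, beside 26.6%, and for 15 in OE against KO, beside 23.8%.

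**Figure D3:**
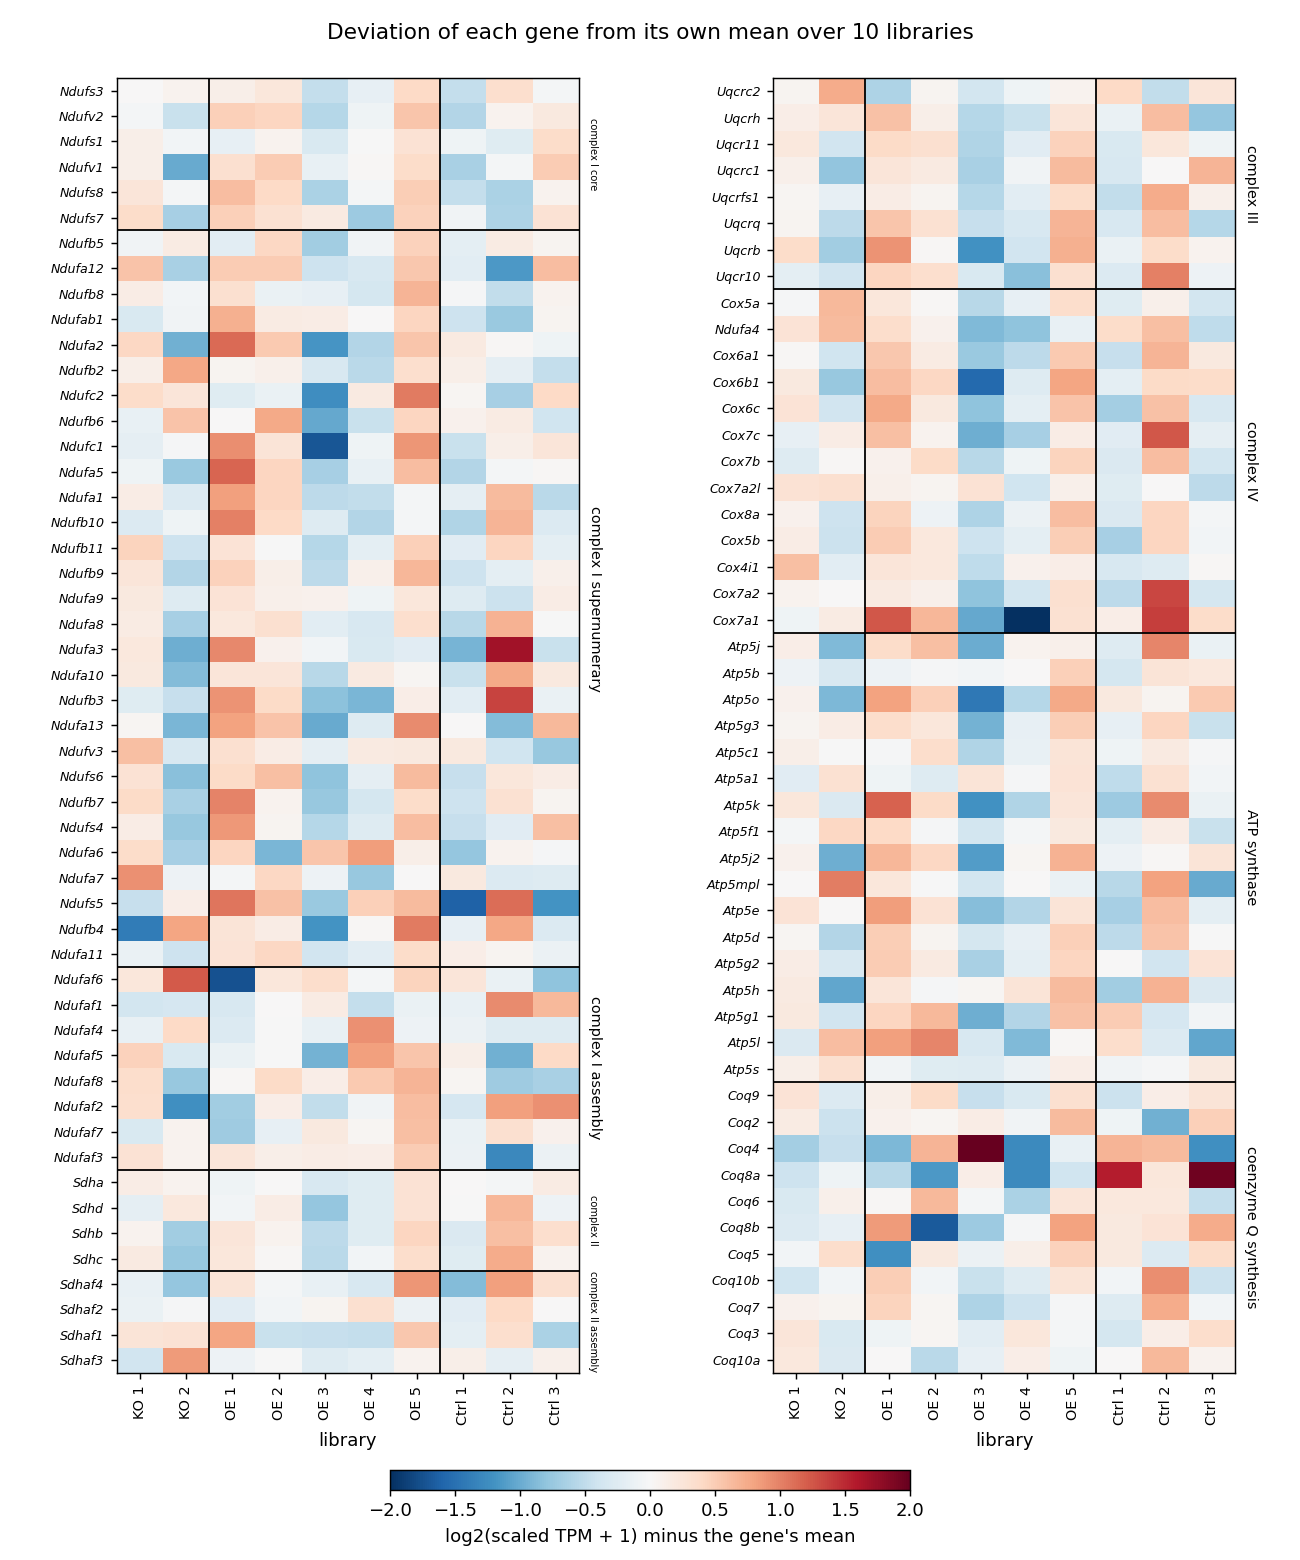
Deviation of the members, 1 of the 101 left out, from each gene's own mean over 10 libraries, in log2(scaled TPM + 1) (colour, limited to -2 to 2), with genes in rows by role and libraries in columns (KO, OE, then Ctrl). The column of OE 3 is mostly blue and that of OE 5 mostly red, while the row of Coq8a is darkest red in Ctrl 1 and Ctrl 3.

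Markers of other crypt and villus cells also differed between these libraries, and their part in the members' values was not tested. The 12 enterocyte genes, which mark absorptive cells and were all tested, summed to 1703 to 2471 scaled TPM in KO, 1117 to 8594 in OE and 1785 to 16711 in Ctrl. The highest sums were 16711 in Ctrl 2 and 8594 in OE 1. OE 3 held 3784 and OE 5 held 3562, and Lct, the lactase gene, was listed at 0 in OE 4 and Ctrl 3. For the 7 Paneth cell genes, all tested, the sums ran over 2908 to 6633 in KO, 4635 to 15134 in OE and 422 to 6556 in Ctrl. The highest Paneth sum was 15134 in OE 5, OE 3 held 10539, and the lowest was in Ctrl 2. The 5 T cell genes, all tested, summed to 20.6 to 57.9 in KO, 69.1 to 296 in OE and 35.7 to 153 in Ctrl, with both KO libraries below all OE libraries. OE 5 held the highest T cell sum, 296, and OE 3 held 130. The 5 B cell genes summed to 11.6 to 27.2 in KO, 19.99 to 183 in OE and 4.82 to 29.8 in Ctrl, and the 8 stem and progenitor genes to 268 to 382, 216 to 682 and 95.1 to 486 in the same groups. OE 3 held the highest stem and progenitor sum, 682, and OE 5 held 322. The brown fat genes Ucp1, Cidea and Plin1 were listed at 0 in every library, 1 of 8 muscle genes and 1 of 4 endothelial genes were tested, and the muscle list summed to at most 3.38 in any library. The 6 fibroblast genes, 4 of them tested, summed to 12.3 to 41.9 in KO, 1.26 to 48.4 in OE and 2.38 to 17.2 in Ctrl. For the 6 macrophage and dendritic cell genes, 5 of them tested, the sums were 3.06 to 10.4, 1.00 to 12.0 and 0.956 to 2.87. In bulk RNA, fewer cells of a type and less RNA per cell cannot be told apart.

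Among the coenzyme Q genes, Coq8a had the largest log2 difference of all members against Ctrl, in both KO and OE. Coq8a, also called Adck3, encodes an atypical kinase-like protein of mitochondria that supports coenzyme Q synthesis. Coq8a was at 16.2 and 20.7 scaled TPM in KO, at 14.7, 9.40, 24.1, 8.57 and 16.5 in OE and at 67.1, 25.8 and 87.8 in Ctrl. Every KO and OE library lay below every Ctrl library, narrowly so for OE 3 against Ctrl 2. The mean ± SD was 18.5 ± 3.20 over the 2 KO libraries, 14.7 ± 6.29 over the 5 OE libraries and 60.2 ± 31.6 over the 3 Ctrl libraries. The log2 difference was -1.49 for KO against Ctrl (95% interval -2.68 to -0.31, limma unadjusted p = 0.018, adjusted p = 0.943). For OE against Ctrl it was -1.89 (95% interval -2.84 to -0.95, limma unadjusted p = 0.00116, adjusted p = 0.755), and for OE against KO it was -0.40 (-1.48 to 0.69, limma adjusted p = 1). None of these passed the threshold, and over all alternatives the OE against Ctrl difference ran over -2.43 to -1.43. In deposited TPM the values were 19.6 and 21.7 in KO and 12.2, 12.3, 28.3, 10.2 and 18.4 in OE, against 81.9, 7.59 and 115 in Ctrl, so that Ctrl 2 was then the lowest library and the groups overlapped.

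The paralog Coq8b, or Adck4, was at 11.1 and 12.1 scaled TPM in KO, 25.4, 3.60, 7.91, 13.5 and 24.7 in OE and 15.7, 16.8 and 23.6 in Ctrl. Both KO libraries lay below the Ctrl range, and the OE libraries spread over more than that range on both sides. Coq8a as a share of Coq8a plus Coq8b, which does not depend on the scaling, was 59.3 and 63.2% in KO, 36.7, 72.3, 75.3, 38.9 and 40.1% in OE and 81.01, 60.6 and 78.8% in Ctrl. The groups overlapped, and exact two-sided permutation tests gave p = 0.3 between KO and Ctrl, 0.161 between OE and Ctrl and 0.476 between OE and KO. The smallest p these designs can give is 0.1, 0.0179 and 0.0476, and after adjustment over 12 share tests each p was 0.898.

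Coq8a lies on chromosome 1, and its window from 250 bases before to 50 bases after the start in the RefSeq table, on the minus strand of GRCm38.p6 (chr1:180195971-180196270), is shown because this gene had the smallest p of the members. A second window of the same gene (chr1:180193436-180193735) held none of the motifs searched. Capitals mark CCAAT or its reverse complement, the box bound by the factor NF-Y, which the first window held 3 times.
Coq8a: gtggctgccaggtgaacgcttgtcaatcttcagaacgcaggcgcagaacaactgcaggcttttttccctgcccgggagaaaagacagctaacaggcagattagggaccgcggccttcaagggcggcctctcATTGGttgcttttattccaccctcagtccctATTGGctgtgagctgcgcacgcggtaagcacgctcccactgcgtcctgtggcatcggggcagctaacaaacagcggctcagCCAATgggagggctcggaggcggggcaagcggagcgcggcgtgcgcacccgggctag

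The other coenzyme Q genes showed no common direction. Coq2, the prenyltransferase that joins the head group to its tail, was at 59.9 and 39.1 scaled TPM in KO, 56.6, 54.7, 59.1, 50.5 and 82.6 in OE and 50.1, 26.97 and 74.3 in Ctrl, with its lowest value in Ctrl 2 and its highest in OE 5. Coq9, a lipid-binding partner of the hydroxylase Coq7, was at 65.7 and 44.9 in KO, 58.99, 70.8, 39.1, 43.5 and 67.95 in OE and 39.8, 59.3 and 64.97 in Ctrl, and the 3 ranges overlapped. Coq4, which is needed for the synthesis complex, was at 16.02 and 18.6 in KO, 13.6, 42.7, 172, 10.3 and 23.6 in OE and 42.7, 41.1 and 10.7 in Ctrl. The OE 3 value of Coq4 stood far above the rest of its group, although OE 3 was low for most other members. The hydroxylases Coq6 and Coq7 covered 14.1 to 35.8 and 5.52 to 15.7 scaled TPM over the 10 libraries, and the methyltransferases Coq5 and Coq3 covered 5.11 to 18.5 and 3.60 to 6.46. Coq10b and Coq10a, which encode coenzyme Q-binding proteins, covered 9.34 to 25.7 and 1.46 to 4.60, and Coq10a was the lowest of the 11 genes on average. As a group, 3 of 11 coenzyme Q genes had a log2 difference above 0 in KO relative to Ctrl (median -0.09), 4 of 11 in OE relative to Ctrl (-0.15) and 7 of 11 in OE relative to KO (0.01).

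**Figure D4:**
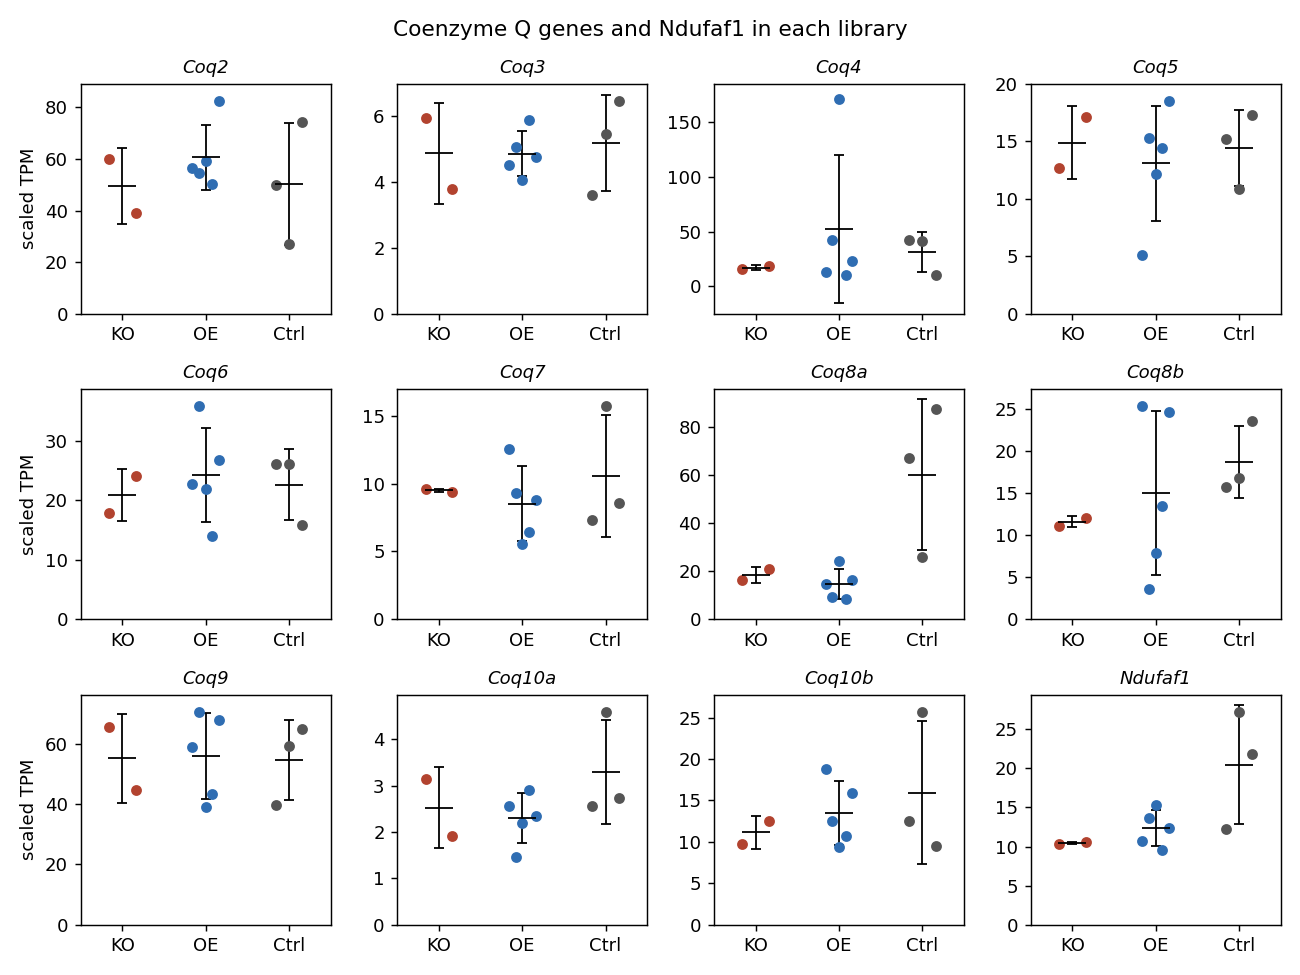
Scaled TPM (vertical axes, linear) of the 11 coenzyme Q genes and Ndufaf1 in each library of KO, OE and Ctrl; dots are libraries, horizontal marks are means and bars are 1 SD. All KO and OE dots of Coq8a lie at or below 24.1, under the lowest Ctrl dot at 25.8, and Coq4 has 1 OE dot at 172.

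Among the complex I assembly factors, Ndufaf1 was lower in both KO and OE, and 2 others were higher in OE, at unadjusted p only. Ndufaf1, part of the complex that builds the membrane arm of complex I, was at 10.4 and 10.5 scaled TPM in KO, 10.7, 13.7, 15.4, 9.54 and 12.4 in OE and 12.2, 27.3 and 21.9 in Ctrl. Both KO libraries lay below every Ctrl library, whereas Ctrl 1 fell inside the OE range. The log2 difference was -0.84 for KO against Ctrl (95% interval -1.59 to -0.08, limma unadjusted p = 0.0331, adjusted p = 0.943). By limma it was -0.63 for OE against Ctrl (-1.24 to -0.03, unadjusted p = 0.0414, adjusted p = 0.755).

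Ndufaf8, which stabilises the assembly factor Ndufaf5, was at 5.38 and 1.97 scaled TPM in KO, 4.09, 5.55, 4.47, 6.21 and 6.997 in OE and 4.13, 2.05 and 2.18 in Ctrl. The OE and Ctrl ranges met only through OE 1 and Ctrl 1, and the log2 difference for OE against Ctrl was 0.79 (0.09 to 1.50, limma unadjusted p = 0.0305, adjusted p = 0.755). Ndufaf3, which acts in assembly of the coenzyme Q-binding module, was near the level required, at 1.99 and 1.55 in KO, 1.89, 1.64, 1.71, 1.66 and 2.45 in OE and 1.25, 0 and 1.25 in Ctrl. All KO and OE values lay above all Ctrl values, of which Ctrl 2 was listed at 0. Its log2 difference was 0.73 for OE against Ctrl (limma unadjusted p = 0.0389, adjusted p = 0.755) and 0.69 for KO against Ctrl (unadjusted p = 0.106, adjusted p = 0.943). Ndufaf2, a late assembly factor, was at 4.72 and 0.936 in KO, 1.78, 3.93, 2.19, 3.28 and 5.89 in OE and 2.58, 6.996 and 7.54 in Ctrl, with overlapping groups and a log2 difference of -0.91 for KO against Ctrl (limma adjusted p = 0.943). Ndufaf6, the most abundant assembly factor, ranged over 37.1 to 75.5 in KO, 8.78 to 43.4 in OE and 17.7 to 37.8 in Ctrl. The assembly factors were low genes next to the subunits they serve, with a sum of 75.7 to 107 scaled TPM in KO, 38.97 to 90.9 in OE and 66.8 to 76.6 in Ctrl.

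The promoter windows of Ndufaf1 and Ndufaf8 are shown because they belong to the assembly factors with the smallest p in opposite directions. The Ndufaf1 window lies at chr2:119662785-119663084 on the minus strand and the Ndufaf8 window at chr11:120098684-120098983 on the plus strand of GRCm38.p6, both from RefSeq. Capitals mark CCAAT or its reverse complement in both windows and, in Ndufaf8, also AAGATGGC or its reverse complement, which is a core of the YY1 motif.
Ndufaf1: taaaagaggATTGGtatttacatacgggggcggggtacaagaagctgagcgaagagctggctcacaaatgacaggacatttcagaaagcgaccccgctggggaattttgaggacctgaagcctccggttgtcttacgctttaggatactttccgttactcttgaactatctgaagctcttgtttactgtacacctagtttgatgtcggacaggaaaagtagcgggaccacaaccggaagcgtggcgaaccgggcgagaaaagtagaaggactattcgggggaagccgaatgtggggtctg
Ndufaf8: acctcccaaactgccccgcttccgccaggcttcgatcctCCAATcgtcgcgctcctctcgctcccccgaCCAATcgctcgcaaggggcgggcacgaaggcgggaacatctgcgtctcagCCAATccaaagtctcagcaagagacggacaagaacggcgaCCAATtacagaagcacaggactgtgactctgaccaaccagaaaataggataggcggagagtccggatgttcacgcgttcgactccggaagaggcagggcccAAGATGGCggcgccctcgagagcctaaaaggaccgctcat

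The 7 core subunits of complex I, which carry its electron path, overlapped between groups. Ndufs3 belongs to the module that reduces coenzyme Q. It was at 113 and 119 scaled TPM in KO, 123, 133, 81.3, 101 and 149 in OE and 80.9, 142 and 111 in Ctrl, with its highest value in OE 5. Ndufv1, which binds NADH, was at 59.5 and 26.8 in KO, 69.04, 78.8, 49.2, 55.8 and 70.8 in OE and 34.5, 53.5 and 78.9 in Ctrl, and KO 2 and Ctrl 1 were its low libraries. Its log2 difference for OE against KO was 0.66 (-0.18 to 1.50, limma unadjusted p = 0.11, adjusted p = 1), the smallest p in the higher direction of that comparison. Of the 7 core genes, 3 had a log2 difference above 0 in KO relative to Ctrl, 6 in OE relative to Ctrl (median 0.26) and 5 in OE relative to KO (0.29).

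Among the 29 supernumerary subunits, which surround the core, Ndufab1 was the 1 gene with an unadjusted p under 0.05, for OE against Ctrl. Ndufab1 encodes the mitochondrial acyl carrier protein, which also serves fatty acid synthesis. Ndufab1 was at 126 and 149 scaled TPM in KO, 255, 174, 172, 156 and 209.8 in OE and 116, 92.98 and 162 in Ctrl. Both KO libraries lay below all OE libraries, and Ctrl 3 fell inside the OE range. The log2 difference was 0.65 for OE against Ctrl (0.09 to 1.21, limma unadjusted p = 0.0261, adjusted p = 0.755) and 0.47 for OE against KO (adjusted p = 1). A processed copy of Ndufab1, Gm4459, covered 0 to 68.7 scaled TPM over the 10 libraries, and with copies summed into their genes the OE against Ctrl value was 0.41.

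Ndufb2, a subunit of the membrane arm, was at 107 and 170.3 scaled TPM in KO, 103, 106, 78.8, 67.95 and 125 in OE and 107, 87.4 and 70.4 in Ctrl. KO 2 stood well above the rest and KO 1 barely above the highest Ctrl library. The log2 differences were 0.63 for KO against Ctrl (unadjusted p = 0.0911, limma adjusted p = 0.943) and -0.52 for OE against KO (adjusted p = 1). The most abundant supernumerary subunits, Ndufb5 and Ndufa12, were at 276 to 323 and 141 to 329.6 in KO, 177 to 399.8 and 167 to 324 in OE, and 253 to 323 and 99.4 to 343 in Ctrl. Of the 29 genes, 13 had a log2 difference above 0 in KO relative to Ctrl (median -0.03), 21 in OE relative to Ctrl (0.08) and 22 in OE relative to KO (0.29). As deviations from the genes' own means, their medians were 0.16 in KO 1 and -0.41 in KO 2, and within OE they ran from -0.56 in OE 3 to 0.43 in OE 5.

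Complex II, the succinate dehydrogenase that also belongs to the tricarboxylic acid cycle, had 1 subunit far above the others. Sdha, the flavoprotein, was at 1359 and 1292 scaled TPM in KO, 1158, 1244, 988, 1046 and 1511 in OE and 1236, 1198 and 1373 in Ctrl. It was the steadiest of the 101 genes, with a highest library 1.53 times its lowest. The iron-sulfur subunit Sdhb was at 104 and 61.00 in KO, 117, 105, 68.8, 84.3 and 134 in OE and 81.3, 152 and 126 in Ctrl. Sdhc, 1 of the 2 membrane anchors, was at 103 and 53.6 in KO, 106, 92.2, 61.98, 87.8 and 117 in OE and 76.6, 152 and 95.9 in Ctrl. The other anchor, Sdhd, was at 172 and 225 in KO, 188, 217, 114, 165 and 239 in OE and 194, 309 and 182 in Ctrl. For Sdhb, Sdhc and Sdhd the highest value was in Ctrl 2, while Sdha in Ctrl 2 lay among the other libraries. The log2 difference was above 0 for 1 of 4 subunits in KO against Ctrl (median -0.32) and for 0 of 4 in OE against Ctrl (-0.21). The 4 assembly factors were low, at a sum of 17.8 to 18.6 in KO, 16.6 to 27.2 in OE and 13.8 to 28.2 in Ctrl, and Sdhaf3 was the member closest to the level required, with a second-highest TPM of 2.10 as deposited, next to 0.280 for Cox6a2 just below it.

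In complex III, Uqcrc2, a core subunit, had the highest TPM of the 8 genes. Uqcrc2 was at 764 and 1219 scaled TPM in KO, 478, 759, 566, 687 and 770.5 in OE and 959.8, 521 and 864 in Ctrl, with its highest value in KO 2 and low ones in OE 1 and Ctrl 2. Its log2 difference for OE against KO was -0.59 (-1.38 to 0.21, limma adjusted p = 1). The other core subunit, Uqcrc1, was at 117 and 63.1 in KO, 129.5, 124, 68.96, 104 and 169 in OE and 86.97, 110.3 and 175 in Ctrl, and there KO 2 was the lowest library. The Rieske iron-sulfur protein Uqcrfs1 was at 97.1 to 112 in KO, 72.98 to 141 in OE and 77.2 to 182 in Ctrl, and the hinge protein Uqcrh at 338 to 364, 208 to 462 and 179 to 473 in the same groups. Of the 8 genes, 2 had a log2 difference above 0 in KO relative to Ctrl, 3 in OE relative to Ctrl and 6 in OE relative to KO, with median log2 differences of -0.17, -0.08 and 0.16.

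In complex IV, Cox5a, a subunit of the matrix side, was the gene with the highest TPM of the 13 at 856 and 1363 scaled TPM in KO, 1009, 879.7, 589, 769 and 1099.6 in OE and 735, 933 and 672 in Ctrl. Ndufa4, first described in complex I and later assigned to complex IV, was at 419.8 and 541 in KO, 444, 369.7, 188, 198 and 313 in OE and 449, 527 and 245 in Ctrl. KO 1 fell just inside the OE range through OE 1, and the log2 difference for OE against KO was -0.73 (-1.67 to 0.20, limma adjusted p = 1). Cox7a2l was at 82.2 and 84.4 in KO, 71.8, 69.6, 82.5, 50.9 and 71.9 in OE and 56.4, 67.2 and 46.4 in Ctrl. Both KO libraries lay above every Ctrl library, also in deposited TPM, and the log2 difference for KO against Ctrl was 0.56 (-0.04 to 1.16, limma unadjusted p = 0.0626, adjusted p = 0.943). The processed copy Gm6969 held 59.5% of the TPM of gene and copy together over the 10 libraries. With the copy summed in, the values were 192 and 222 in KO, against 167, 205 and 126 in Ctrl. KO 1 then lay below Ctrl 2, so that the groups overlapped, and the log2 difference was 0.34. Of the 13 genes, 5 had a log2 difference above 0 in KO relative to Ctrl, 7 in OE relative to Ctrl and 6 in OE relative to KO, with median log2 differences of -0.10, 0.01 and -0.15.

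Subunit isoforms known from other tissues were at or near 0. Cox6b2, Cox7b2, Cox8b, Cox8c and Ndufa4l2 were listed at 0 in all 10 libraries. Cox4i2, the isoform known from lung and low oxygen, was listed at 0 in 9 libraries and at 0.307 scaled TPM in OE 2, whereas Cox4i1 was at 84.6 and 48.1 in KO, 65.9, 64.8, 39.00, 58.9 and 61.2 in OE and 44.4, 46.5 and 56.6 in Ctrl. Cox6a2, the heart and muscle isoform, reached 2.22 in Ctrl 2 and 0.267 in KO 2 and was otherwise at most 0.154, while its ubiquitous counterpart Cox6a1 covered 185 to 498. Cox7a1, also known as a heart and muscle isoform, was an exception at 17.98 and 21.8 in KO, 47.02, 31.1, 8.96, 1.27 and 24.00 in OE and 21.1, 52.04 and 25.1 in Ctrl. It had the widest range of the members above 0 in every library, with its lowest value in OE 4 and its highest in Ctrl 2. Among the muscle markers, Myh11, Myh6 and Ckm were at most 0.0541 scaled TPM in any library, and Cnn1 at most 0.0376. Tagln covered 0.971 to 2.40 over the 10 libraries. Acta2 reached 0.887 in Ctrl 2, Des 0.457 in OE 1 and 0.436 in Ctrl 2, and Actg2 0.342 in OE 2. The relation of these markers to Cox7a1 was not tested.

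ATP synthase genes gave the largest part of the members' TPM, and Atp5j was the highest of all 101 genes in each library. Atp5j, which encodes coupling factor 6 of the peripheral stalk, was at 6134 and 3045 scaled TPM in KO, 7214, 8463, 2816, 5882 and 6033 in OE and 4688, 11003 and 5106 in Ctrl. KO 2 and OE 3 were its low libraries and Ctrl 2 its high one, so that groups overlapped. The catalytic beta subunit Atp5b was at 1028 and 881 in KO, 1031, 1086, 1064, 1118 and 1533 in OE and 871, 1329 and 1280.3 in Ctrl, and both KO libraries lay below all OE libraries, KO 1 by little. Atp5o, the subunit that ties the stalk to the catalytic head, was at 1054 and 532 in KO, 1736, 1369, 365, 663 and 1679 in OE and 1131, 1029 and 1416 in Ctrl, and OE alone held both its lowest and its highest library. Atp5h, a stalk subunit, was at 35.4 and 14.7 in KO, 37.1, 30.7, 32.1, 37.6 and 48.7 in OE and 18.9, 51.1 and 25.4 in Ctrl. KO 2 was its lowest library, and the log2 difference for OE against KO was 0.66 (limma adjusted p = 1). With its copies summed into Atp5h the same value was 1.83, and Gm14472, one of them, was at 40.8 and 0 in KO and 159, 123, 0, 44.99 and 294 in OE. Atp5g1, Atp5g2 and Atp5g3 encode the same mature subunit of the proton-carrying ring, and Atp5g1 gave 3.18 and 1.99% of their sum in KO, 3.04, 3.86, 2.70, 2.13 and 3.08% in OE and 4.52, 1.72 and 3.65% in Ctrl. Processed copies held 15.3% to 67.0% of the sum of Atp5g1 and its copies over the libraries, and 46.3% to 68.7% for Atp5g2. The Atp5g1 share is therefore uncertain, as how reads were divided between gene and copy is not given. Of the 17 genes, 8 had a log2 difference above 0 in KO relative to Ctrl, 11 in OE relative to Ctrl and 9 in OE relative to KO, with median log2 differences of -0.05, 0.07 and 0.03.

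Counted by whether the groups' values overlapped, few members stood apart. In KO against Ctrl, 3 members lay wholly above (Ndufb2, Ndufaf3 and, before its copy was summed in, Cox7a2l) beside 9.09% of all genes, and 5 wholly below (Coq8a, Coq8b, Ndufaf1, Ndufb3 and Ndufa11) beside 7.27% of all genes. In OE against Ctrl, 1 member lay wholly above (Ndufaf3) beside 2.21% of all genes and 1 wholly below (Coq8a) beside 1.52%. In OE against KO, 2 lay wholly above (Ndufab1 and Atp5b) beside 4.04%, and 0 wholly below beside 4.43%. These counts are close to or under the shares of all genes. In deposited TPM, 11 members lay wholly above Ctrl in KO, beside 8.44% of all genes, and 0 wholly below, beside 1.47%. In the same units, 1 member lay wholly above Ctrl in OE (beside 1.78%) and 0 below (beside 0.237%), and 1 lay wholly above KO in OE (beside 3.09%) and 2 below (beside 3.63%). In those units Ctrl 2 was the lowest library for 87 of the 101 members.

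Processed pseudogenes held a large part of the TPM of some members and their copies. Processed pseudogenes are copies of a messenger RNA inserted elsewhere in the genome. Of those listed in the TPM data, 57 matched 33 of the members at 90% identity or more across at least 50% of the copy. Some of the 57 were listed at 0 in all 10 libraries, 19 reached the level for testing and 11 averaged at least 10 scaled TPM. For 8 members the copies held over 50% of the sum of gene and copies, with shares of 93.9% for Ndufb4, 92.3% for Atp5l, 74.9% for Atp5h, 74.2% for Cox6c, 63.4% for Atp5f1, 59.5% for Cox7a2l, 55.1% for Atp5g2 and 50.7% for Atp5g1. The levels of these 8 genes are uncertain, as how reads were divided between gene and copy is not given in the sources used here. Cox6c, a complex IV subunit, was at 218 and 139 scaled TPM in KO, 305, 208, 103, 159 and 269 in OE and 112, 273 and 145 in Ctrl. Its copy Cox6c2, on chromosome 12, was at 659.9 and 524 in KO, 1039, 614, 406, 356 and 462 in OE and 571, 576 and 346 in Ctrl, above the gene itself in every library. With copies summed into their genes no member passed the threshold either, and the median log2 difference over members was -0.07 between KO and Ctrl, 0.03 between OE and Ctrl, and 0.12 between OE and KO.

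**Figure D5:**
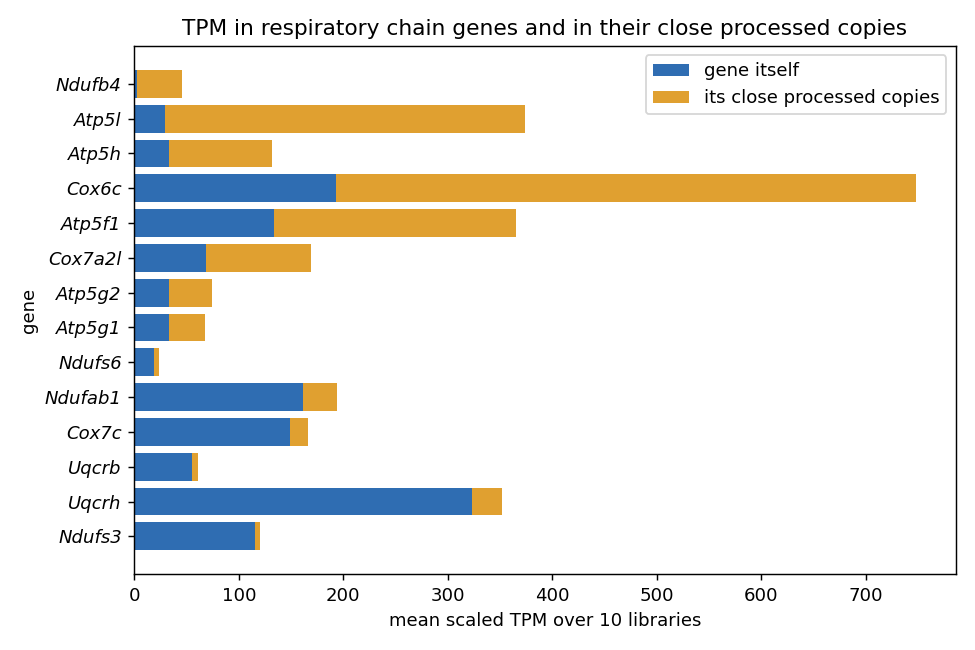
Mean scaled TPM over 10 libraries (horizontal axis) credited to each gene (blue) and to its close processed copies (yellow), for the 14 genes whose copies averaged at least 1 and ordered by the copies' share. In the top 8 rows, Ndufb4 to Atp5g1, the yellow part is over 50% of the bar.

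Cox6c and its copy are shown because their near identity bears on how far their levels can be told apart. Coding bases of Cox6c (chromosome 15) and the whole of Cox6c2 (chr12:56373593-56373823, minus strand) are given from the GENCODE M21 transcripts of GRCm38, with capitals at the 7 of 231 positions that differ. The longest run without a difference is 145 bases.
Cox6c: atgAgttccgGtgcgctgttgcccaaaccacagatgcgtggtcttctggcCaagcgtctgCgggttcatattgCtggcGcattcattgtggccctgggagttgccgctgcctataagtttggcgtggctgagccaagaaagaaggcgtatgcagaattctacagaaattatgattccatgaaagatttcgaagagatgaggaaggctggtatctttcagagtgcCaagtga
Cox6c2: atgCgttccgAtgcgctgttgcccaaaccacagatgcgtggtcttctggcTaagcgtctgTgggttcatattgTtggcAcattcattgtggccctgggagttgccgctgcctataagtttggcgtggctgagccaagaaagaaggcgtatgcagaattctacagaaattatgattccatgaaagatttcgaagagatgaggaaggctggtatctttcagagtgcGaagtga

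Other pairs were closer still. Atp5l, a subunit of the membrane part of ATP synthase (chromosome 9), and its copy Gm10221 (chr5:24581554-24581862, minus strand) are identical over all 309 aligned bases, of which the first 120 of the coding sequence are shown with no capitals because none differ. Atp5l itself covered 12.2 to 52.4 scaled TPM and Gm10221 averaged 333. Ndufb4 and Ndufb4c are identical over 390 bases, Atp5g2 and Gm10231 over 441, and Atp5g1 and Gm10039 differ at 1 of 411.
Atp5l: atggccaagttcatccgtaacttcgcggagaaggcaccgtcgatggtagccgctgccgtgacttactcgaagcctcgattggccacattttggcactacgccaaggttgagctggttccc

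Promoter windows were found in the RefSeq table for 84 of the 101 members, 92 windows in all. Of these, 14.1% held GCGCATGC, a core of the motif of NRF1, which is known to act on many respiratory chain genes, beside 5.19% of 11838 windows of tested genes and 2.71% of all 32851 windows. The YY1 core AAGATGGC was in 12.0% of the members' windows (11 of 92), beside 4.51% and 2.75%. TCAAGGTCA, a motif of the estrogen-related receptors, was in 2.17%, only 2 of the 92 windows, beside 0.270% and 0.423%. CCGGAAGT, a motif of the ETS factors such as GABPA, was in 5.43%, beside 8.15% and 3.89%, and CCAAT in 40.2%, beside 38.1% and 37.4%. The STAT spacing TTCNNNGAA, in which N is any base, was in 6.52% of the members' windows, beside 6.95% of those of tested genes and 8.30% of all. Both strands were searched for each motif, and a match describes letters only. The median GC content was 58.7% in the members' windows and 60.3% in those of tested genes.

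Members often shared a start region with a gene on the other strand. For 23 of 101 members (22.8%) another protein-coding gene on the opposite strand started within 1000 bases upstream, beside 10.5% of 11625 tested protein-coding genes. Sdhd and Timm8b start 98 bases apart, Ndufa7 and Rps28 10 bases apart, and Ndufb9 and Tatdn1 18 bases apart. Of the highly expressed Atp5j, 1 of its 2 windows (chr16:84834927-84835226, minus strand, GRCm38.p6, from RefSeq) overlaps that of Gabpa (chr16:84834874-84835173, plus strand), the gene of an ETS factor known to act on respiratory chain promoters. It is shown with the YY1 core in capitals, which lies in the part that both windows share. Atp5j is not among the 23 members above. These were counted from 1 GENCODE M21 start per gene rather than RefSeq windows, and pairs whose starts overlap were left out. Gabpa was at 14.7 and 13.4 scaled TPM in KO, 15.6, 18.9, 14.6, 18.7 and 23.99 in OE and 28.8, 27.9 and 18.03 in Ctrl, far below Atp5j in every library.
Atp5j: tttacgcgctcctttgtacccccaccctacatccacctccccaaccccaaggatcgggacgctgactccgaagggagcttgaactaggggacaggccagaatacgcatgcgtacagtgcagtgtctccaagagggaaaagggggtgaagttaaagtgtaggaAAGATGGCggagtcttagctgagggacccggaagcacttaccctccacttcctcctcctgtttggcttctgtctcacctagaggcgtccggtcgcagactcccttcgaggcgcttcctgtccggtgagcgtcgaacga

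Neighbouring parts of the same machinery were counted for comparison, and 0 of their genes passed the threshold in any comparison. The 13 mitochondrially encoded subunits, which join the members in complexes I, III, IV and ATP synthase, summed to 403052 to 505067 scaled TPM in KO, 324643 to 675070.0 in OE and 338879 to 2824510.0 in Ctrl. The Ctrl range is set by Ctrl 2, and 13 of 13 had a log2 difference below 0 for KO against Ctrl and for OE against Ctrl. A large part of each sum came from mt-Atp8, at 182910 in KO 1, 353875 in KO 2 and 1864410 in Ctrl 2. The sum was higher in KO 2 than in KO 1, but the median of the 13 genes was lower, at 6709 against 11012. mt-Co2, a core subunit of complex IV, was at 91827 and 52209 in KO, 236140.0, 63644, 49048, 46474 and 105516 in OE and 70372, 293426 and 80049.5 in Ctrl, with OE 1 and Ctrl 2 high. Of the 12 respiratory chain genes outside the symbol rule, 4 had a log2 difference above 0 in KO relative to Ctrl and 7 in OE relative to Ctrl, and Cyc1, cytochrome c1 of complex III, was at 127 and 134 in KO, 143, 147, 139.9, 101 and 187 in OE and 97.9, 153 and 179 in Ctrl. Etfa, which passes electrons from fatty acid oxidation towards coenzyme Q, was at 164 and 167 in KO, 210.4, 158, 94.9, 101 and 169 in OE and 135, 123 and 158 in Ctrl, with both of its lowest values in OE. Of 36 other assembly factors, 14 had a log2 difference above 0 in KO relative to Ctrl, 20 in OE relative to Ctrl and 18 in OE relative to KO. Cox17, a copper carrier for complex IV, was at 42.01 and 232 in KO, 185, 161, 32.9, 62.6 and 101 in OE and 101, 517 and 115 in Ctrl, a spread within KO that was larger than any difference between group means.

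Of the 13 genes of the tricarboxylic acid cycle, 6 had a log2 difference above 0 in KO relative to Ctrl, 5 in OE relative to Ctrl and 9 in OE relative to KO. Mdh2, mitochondrial malate dehydrogenase, was at 180.1 and 168 scaled TPM in KO, 260.1, 211, 159, 138 and 254 in OE and 155, 576 and 179 in Ctrl, where Ctrl 2 stood above all other libraries. Of 13 regulators of mitochondrial genes, 7, 6 and 8 had one above 0 in those comparisons. Esrra, the estrogen-related receptor alpha, was at 29.7 and 24.04 in KO, 51.1, 24.1, 23.6, 47.7 and 41.8 in OE and 25.3, 60.4 and 57.96 in Ctrl, and both KO libraries and OE 2 and OE 3 lay at the low end with Ctrl 1. Tfam, which packages and transcribes mitochondrial DNA, was at 27.4 and 31.5 in KO, 42.6, 47.6, 27.9, 41.1 and 34.6 in OE and 31.4, 14.03 and 54.2 in Ctrl, with its lowest value in Ctrl 2, the library with the highest share of mitochondrial transcripts.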

How the data were processed

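RNA was measured in 10 libraries of mouse ileal crypts, 1 deposited table of TPM each. The deposited TPM were made by the authors before deposit, and the submitters' processing notes name TopHat, Cufflinks and build mm10 but no versions. The tool that gave the TPM, its annotation and its handling of reads with several matches were likewise not given in the sources used here. The header of the Ctrl 1 table names no unit, and its values were taken as TPM. Crypts were loosened by shaking in buffer with EDTA, per the labels' protocols, and total RNA was sequenced from 1 end.

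Gene IDs were matched to GENCODE M21 (27458 of 28987 had a symbol). TPM were divided by median-ratio factors from 11146 genes that were never 0, and log2(scaled TPM + 1) was fitted with limma 3.58.1 (intensity trend, R 4.3.3) over the 3 groups, with no block, for genes with at least 1 TPM in at least 2 libraries. A fold change on this scale understates the change of low genes. Benjamini-Hochberg adjustment ran over 13056 genes, with a threshold of 0.05. Shares were compared by exact permutation over libraries. The script was tested on simulated data.

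Genes named were all coenzyme Q genes and complex II subunits, the 2 highest genes of each other role or pathway list, and the 3 members with the smallest p in each direction, apart from genes that are not reported here. Other members were named after their values were seen. Members and lists were chosen with earlier results of these data known. Copies were found with BLAST 2.17.0. Scaling, filters, pseudocount, limma settings, the replicate block and libraries left out were varied, and copies were summed into their genes as an alternative chosen after seeing the data. TPM hold no counts, so no counting interval is given.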

Additional observations from a re-analysis of the deposited data

Results flagged for a closer look

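In the OE group, with 5 libraries, 6 of 101 members (5.94%) had a highest or lowest library whose gap to the nearest of the others, divided by the whole range of the group, exceeded Dixon's critical value of 0.71. For normally distributed values chance flags about 1 in 20 groups. The values here were scaled TPM without logs, and the share over all genes is not given, so the share was not compared with chance. Coq4 stood at 172 scaled TPM in OE 3, with 10.3 to 42.7 in the other 4 OE libraries. Atp5b stood at 1533 in OE 5, with 1031 to 1118 in the others. Coq2 stood at 82.6 in OE 5, with 50.5 to 59.1 in the others. Ndufaf4, an assembly factor of complex I, stood at 13.4 in OE 4, Ndufa3, a supernumerary subunit, at 58.8 in OE 1, and Cox4i1 at 39.0 in OE 3, the 1 low value among the 6.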

How the results depend on the processing

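No member passed the threshold under any alternative run. Counts over all genes, 0 in each comparison, were 5 for KO against Ctrl and 7 for OE against KO with no filter, and 1 for KO and 1 for OE against Ctrl with only the groups compared in the fit. Without Ctrl 2 and OE 1 the count was 1 for OE against KO, and without Ctrl 3, OE 3 and OE 4 it was 1 against Ctrl and 1 against KO for OE. Leaving out 1 library gave 0 to 2 genes for KO against Ctrl, 0 to 1 for OE against Ctrl and 0 to 2 for OE against KO, and the cause was not tested. With the replicate number as a replicate block the counts were 0, 3 and 0 and the median log2 differences of the members -0.20, 0.03 and 0.22. Same-numbered OE and Ctrl libraries did not deviate together (r = -0.13, -0.05 and -0.18 across genes), and their numbers were not taken as pairs. TPM as deposited gave member medians of 0.41 for KO and 0.53 for OE against Ctrl. Coq8a stayed negative under every alternative, at -2.01 to -1.01 for KO and -2.43 to -1.43 for OE against Ctrl (limma adjusted p of 0.64 to 1 and 0.17 to 0.998).

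Of the isoform shares, in percentage points, leaving out 1 library gave -1.12 to 0.280 for Atp5g1 in OE against Ctrl (-0.332 with all libraries) and -0.214 to 0.973 in OE against KO (0.379). The Atp5g1 share was not computed again with processed copies summed in. The share of Coq10a in Coq10a plus Coq10b ran over -4.97 to 6.29 for KO against Ctrl (0.656), with -0.860 without Ctrl 2, and over -9.35 to 1.91 for OE against KO (-3.72). For Cox4i2, seen in OE 2 only, OE lay above Ctrl by 0 to 0.118 and above KO by 0 to 0.118. The cause of these reversals was not tested. Of the members named by the rule, the log2 difference kept its sign under all alternatives for 14 of 31 in KO against Ctrl, 9 of 30 in OE against Ctrl and 15 of 31 in OE against KO. Since depth is unknown, no limit from counting can be set for low genes such as Ndufaf3.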
